A study of Mus musculus with 6 samples.

Results

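The isocitrate dehydrogenase (IDH) family was examined in mouse lung epithelial cells in which *Idh3a* and *Slc25a1* had been knocked down together. The 5 members, taken by gene name from the 54532 genes of the deposited count table, were the 3 IDH3 subunit genes *Idh3a* (written *Idh3α* in the sample labels), *Idh3b* and *Idh3g* and the 2 NADP-dependent enzymes *Idh1* and *Idh2*. All 5 were among the 15307 genes with enough counts to be tested. The question was whether the other IDH3 subunits and the NADP-dependent enzymes differed when *Idh3a* mRNA was reduced.

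IDH enzymes turn isocitrate into 2-oxoglutarate (α-ketoglutarate). IDH3 works inside mitochondria as a step of the tricarboxylic acid (TCA) cycle, is in practice irreversible and makes NADH. Its alpha subunit (Idh3a) carries the catalytic site, and it assembles with a beta subunit (Idh3b) or a gamma subunit (Idh3g), the latter taking part in allosteric control. Idh2, also in mitochondria, and Idh1, in the cytosol and peroxisomes, are separate enzymes that use NADP, run in either direction and supply NADPH.

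MLE12 is an immortalized mouse lung epithelial line that was derived from tumors driven by SV40 large T antigen, so all samples came from 1 line, for which the labels give the strain C57BL/6J. The 3 control samples (Ctrl shRNA) received a lentivirus at an MOI of 50 (infectious particles per cell), which the labels describe as empty LV vectors and for which the study's methods also give a control sequence. The 3 knockdown samples received the Idh3α shRNA and the Slc25a1 shRNA lentiviruses together, each at an MOI of 50, and in both groups the medium was changed after 16 h and the cells were kept for a further 80 h. The effects of the 2 shRNAs and of the larger total dose of virus in the knockdown samples cannot be told apart. Slc25a1 is the carrier that exports citrate from mitochondria.

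The sequence that the Idh3α shRNA targets lay at chr9:54598437-54598457 on the plus strand of GRCm38, in the coding part of exon 7 of 11, and occurred in 4 of 5 annotated *Idh3a* transcripts. It is shown because it decides which family member the shRNA can pair with fully. The 21 target bases are in capitals and the 20 bases on either side in lower case:
Idh3a: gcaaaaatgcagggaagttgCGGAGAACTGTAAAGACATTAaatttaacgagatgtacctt

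The closest stretch in the annotated transcripts of each of the other members is shown next, with bases shared with the *Idh3a* target in capitals and mismatched bases in lower case:
Idh3b: aGGAGAACaaagttGcCATcA
Idh3g: CGGtGgACTtTgAAGAggTgc
Idh1: gGGtGAACaaTAgctACAgTA
Idh2: aGatGgACgGTgAcGAgATgA
*Idh3g* and *Idh1* differed from the target at 8 of the 21 bases, and *Idh3b* and *Idh2* at 9. A match at least as close as 8 mismatches was found in 67.8% of the other 21900 protein-coding genes, whose median was also 8, and one at least as close as 9 mismatches in 94.2%. In this window no other family member was closer to the Idh3α shRNA target than a typical gene. Only the full 21 bases of this target were compared, so these values do not cover the Slc25a1 shRNA or pairing over shorter stretches. The closest other gene differed at 2 bases.

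The total count was 27273502 to 28535653 in the controls and 27715153 to 28112519 in the knockdown samples. Ctrl shRNA replicate 2 stood apart from the other 5 libraries. It had counts on 16681 genes against 19902 to 23147, placed 27.2% of its counts on its 100 most abundant genes against 12.6% to 12.9%, and held 6.49% mitochondrially encoded counts against 1.57% to 1.80%. Its TMM scaling factor (the correction edgeR makes for the composition of a library) was 0.711 against 1.05 to 1.09. The fold changes, ratios and shares of the members are therefore given with and without this library. Of 12 lung epithelial markers, 7 reached an FPKM of 1 in every library, among them *Krt19* (376 to 503 FPKM), *Krt8* and the lung factor *Nkx2-1*, whereas *Krt18* was at or below 0.368 FPKM and *Sftpd* at 0. The summed FPKM of the epithelial markers was 720 to 810 in the controls and 757 to 823 in the knockdown samples. Within this list the groups did not overlap for surfactant protein C (*Sftpc*), at 42.9 to 93.4 FPKM in the controls and 26.4 to 34.8 FPKM in the knockdown samples, for *Nkx2-1*, at 113 to 121 and 98.0 to 107 FPKM, or for *Epcam*, at 1.603 to 1.98 and 1.18 to 1.57 FPKM, all lower in the knockdown samples, or for *Cdh1*, higher in the knockdown samples, at 14.8 to 16.5 and 16.6 to 18.4 FPKM. For comparison, 25.4% of all tested genes had groups that did not overlap in CPM, so such separation was common in these data. The part of these markers in the results was not tested. The 6 leukocyte markers summed to 1.51 to 1.63 in the controls and 2.01 to 2.35 in the knockdown samples, most of it *Cd68* (1.32 to 1.52 and 1.87 to 2.18 FPKM), with *Ptprc* and *Itgam* at 0, and the 4 endothelial markers to 7.82 to 9.65 and 6.76 to 7.00, again without overlap, with *Tek* alone above an FPKM of 1. The 6 fibroblast markers summed to 59.1 to 209 in the controls and 53.9 to 58.5 in the knockdown samples, nearly all of it *Dcn*, with *Col3a1* at 0. *Dcn* was highest in Ctrl shRNA replicate 2, and its part in the results was not tested.

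The targeted subunit was examined first. *Idh3a* (ENSMUSG00000032279, chr9:54586334-54604661) gave, in CPM (counts scaled to the TMM-corrected library size), 79.8, 137 and 93.0 for controls 1 to 3 and 58.5, 57.9 and 55.5 for knockdown samples 1 to 3. All knockdown samples lay below all controls, and the knockdown samples varied far less among themselves than the controls did. The mean was 103 ± 29.7 CPM (SD, n = 3) in the controls and 57.3 ± 1.59 CPM (SD, n = 3) in the knockdown samples, or 55.6% of control.

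With all 6 libraries the log2 fold change of *Idh3a* was -0.85 (standard error 0.20; 95% interval of the fold 0.399 to 0.775), with an adjusted p of 0.254 (edgeR's quasi-likelihood test, Benjamini-Hochberg adjustment across the whole table). It did not pass the threshold of 0.05, which 0.0653% of the tested genes passed in this fit. Its unadjusted edgeR p was 0.00471, and 14.1% of genes had an unadjusted p below 0.05. Without Ctrl shRNA replicate 2, *Idh3a* fell by 0.60 on the log2 scale (standard error 0.08; fold 0.581 to 0.747; edgeR adjusted p = 0.0142), to 66.3% of a control mean of 86.4 ± 9.30 CPM (SD, n = 2). In that fit 1.79% of genes passed, and 0.675% passed as lower in the knockdown. DESeq2 with all libraries also called *Idh3a* lower (log2 fold change -0.84, adjusted p = 0.0205 with Benjamini-Hochberg adjustment), where 2.51% of the genes with an adjusted p were called. The estimate was negative in all 18 settings tried and passed the threshold in 4 of them, with adjusted p-values from 2.19e-07 to 0.675. The remaining passing settings called many genes. DESeq2 without Ctrl shRNA replicate 2 called 490 as higher and 330 as lower, of 12459 with an adjusted p. The limma fit with sample quality weights called 1327 as higher and 971 as lower, of 15307.

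The size of the *Idh3a* difference depended on how Ctrl shRNA replicate 2 was scaled. The unscaled counts of *Idh3a* were 2471, 2697 and 2667 in the controls and 1741, 1756 and 1646 in the knockdown samples, so that in counts this library lay close to the other controls. Relative to total counts alone, *Idh3a* gave 86.6, 97.0 and 97.8 CPM in controls 1 to 3 against 62.1, 62.5 and 59.4 after knockdown. On every one of these scales the groups did not overlap. Among all tested genes, 8.66% had a lower log2 fold change than *Idh3a* with all libraries and 5.24% without Ctrl shRNA replicate 2. Because the RNA was taken from whole cultures, fewer transcripts per cell and fewer cells expressing the gene cannot be told apart.

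**Figure D1:**
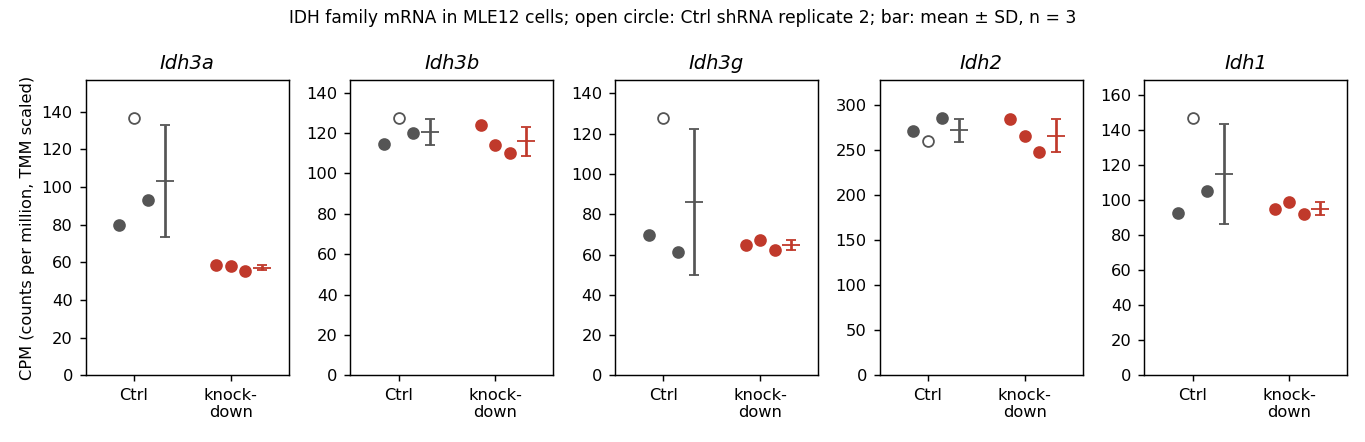
CPM of the 5 IDH family genes (vertical axes, scaled to the TMM-corrected library size, starting at 0) in each Ctrl shRNA and knockdown library, with the mean and SD (n = 3) beside the points and Ctrl shRNA replicate 2 as an open circle. For *Idh3a* the knockdown samples (55.5 to 58.5 CPM) lie below all controls (79.8 to 137 CPM), whereas for the other 4 genes the groups overlap, and Ctrl shRNA replicate 2 is the highest control for *Idh3a*, *Idh3b*, *Idh3g* and *Idh1* but not for *Idh2*.

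The beta subunit gene *Idh3b* (ENSMUSG00000027406, chr2:130279309-130284547, minus strand) gave 114, 127 and 120 CPM in controls 1 to 3 against 124, 114 and 110.0 CPM after knockdown. The groups overlapped, with means of 120.5 ± 6.45 and 116 ± 7.09 CPM (SD, n = 3 each). The log2 fold change was -0.06 with all libraries (standard error 0.08; fold 0.840 to 1.10; edgeR adjusted p = 0.747) and -0.02 without Ctrl shRNA replicate 2 (fold 0.878 to 1.10; adjusted p = 0.882), but 0.13 when libraries were scaled by total count only, a scaling that moved the median of all genes from -0.01 to 0.16. A fall of *Idh3b* as large as that of *Idh3a* lay outside these intervals, whereas a fold of 0.9 or 1.1 did not. The last 5 bases of the gene overlap *Nop56* on the opposite strand, whose mean count was 4771 against 3316 for *Idh3b*, and reads in those bases could count for either gene if strand was not used.

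The gamma subunit gene *Idh3g* (ENSMUSG00000002010, chrX:73778963-73786897, minus strand) gave 69.5, 128 and 61.4 CPM in controls 1 to 3 against 64.8, 67.3 and 62.4 CPM after knockdown. Ctrl shRNA replicate 2 held by far the highest value, and the other 5 libraries lay together. With all libraries the means were 86.2 ± 36.1 and 64.8 ± 2.43 CPM (SD, n = 3 each) and the log2 fold change was -0.41 (standard error 0.28; fold 0.475 to 1.19; edgeR adjusted p = 0.464). Without this library the control mean was 65.5 CPM and the log2 fold change -0.02 (standard error 0.08; fold 0.868 to 1.11; edgeR adjusted p = 0.894). The lower *Idh3g* mean of the knockdown group in the full comparison thus rested on 1 control library.

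The cytosolic enzyme gene *Idh1* (ENSMUSG00000025950, chr1:65158616-65186500, minus strand) showed the same arrangement, with 92.6, 147 and 105.5 CPM in controls 1 to 3 against 95.1, 98.9 and 92.0 CPM after knockdown. The knockdown samples lay within or just below the range of control replicates 1 and 3, and the full control mean was 115 ± 28.3 CPM against 95.3 ± 3.47 CPM (SD, n = 3 each). The log2 fold change was -0.27 with all libraries (standard error 0.17; fold 0.621 to 1.11; edgeR adjusted p = 0.445) and -0.06 without Ctrl shRNA replicate 2 (fold 0.848 to 1.08; adjusted p = 0.672). In unscaled counts *Idh1* was 2868, 2902 and 3027 in the controls, so before scaling Ctrl shRNA replicate 2 lay between the other controls.

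The mitochondrial NADP-dependent enzyme gene *Idh2* (ENSMUSG00000030541, chr7:80094846-80115392, minus strand) gave 271, 259.6 and 285 CPM in controls 1 to 3 against 284, 266 and 248 CPM after knockdown. The groups overlapped, and Ctrl shRNA replicate 2 was here the lowest control. The log2 fold change was -0.03 with all libraries (standard error 0.09; fold 0.844 to 1.14; edgeR adjusted p = 0.881) and -0.07 without that library (fold 0.843 to 1.07; adjusted p = 0.632), but 0.14 with scaling by total count only and 0.021 without knockdown replicate 3. An unverified gene model, *Gm45203*, overlaps *Idh2* over 1831 bases on the same strand but held only 0 to 17 counts per library, against a mean of 7597 for *Idh2*.

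Of the 5 members, none passed the edgeR threshold with all libraries, 1 (*Idh3a*) had an unadjusted p below 0.05, and 1 (*Idh3a*) passed by edgeR without Ctrl shRNA replicate 2 and by DESeq2. Likewise 1 of 5 had groups that did not overlap in CPM, where 25.4% of all tested genes did not overlap and 10.7% did not overlap and were lower in the knockdown. Since *Idh3a* was the gene targeted, these counts describe the knockdown rather than the family. Over the 18 settings the adjusted p ran from 0.591 to 0.963 for *Idh3b*, from 0.319 to 0.947 for *Idh3g*, from 0.182 to 0.925 for *Idh1* and from 0.463 to 0.972 for *Idh2*.

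**Figure D2:**
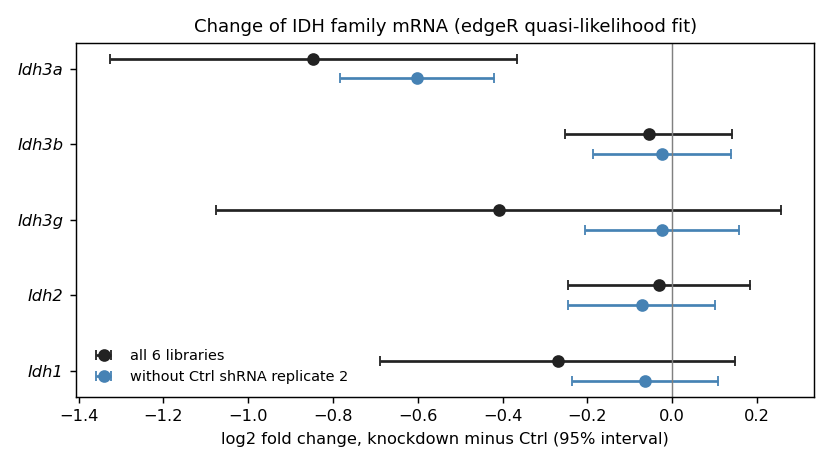
Log2 fold change of each IDH family gene, knockdown minus Ctrl (horizontal axis), with its 95% interval from edgeR's quasi-likelihood fit, for all 6 libraries (black) and without Ctrl shRNA replicate 2 (blue). The intervals of *Idh3a* lie below 0 in both fits, those of the other 4 genes include 0, and the estimate of *Idh3g* moves from -0.41 to -0.02; the estimates of *Idh3b* and *Idh2* turn positive under scaling by total count only.

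To compare the subunits without any scaling between libraries, ratios of FPKM (fragments per kilobase of gene, scaled to library size) were taken within each library. The ratio of *Idh3a* to *Idh3b* was 0.471, 0.724 and 0.524 in Ctrl shRNA replicates 1, 2 and 3 and 0.319, 0.343 and 0.340 in the knockdown replicates. All knockdown ratios lay below all control ratios. On the log2 scale the mean ratio differed by -0.75 between the groups (p = 0.1 in a two-sided exact permutation test, the lowest value possible with 3 samples a group; 0.2 after Benjamini-Hochberg adjustment over the 4 ratios compared), and by -0.57 without Ctrl shRNA replicate 2 (exact p = 0.2, again the smallest possible).

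The ratio of *Idh3a* to *Idh3g* was 0.611, 0.569 and 0.806 in the controls and 0.481, 0.458 and 0.473 in the knockdown samples. Here too the groups did not overlap, and Ctrl shRNA replicate 2 was the lowest control rather than the highest. The log2 difference was -0.48 with all libraries (exact permutation p = 0.1, adjusted 0.2) and -0.58 without that library. Within a library, *Idh3a* was thus lower relative to both partner subunits in every knockdown sample, although this design cannot reach a p of 0.05 with an exact test.

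The ratio of the 2 subunits that were not targeted, *Idh3b* to *Idh3g*, was 0.38, -0.35 and 0.62 on the log2 scale in the controls and 0.59, 0.42 and 0.48 in the knockdown samples. The groups overlapped, and the lowest ratio was that of Ctrl shRNA replicate 2. The log2 difference was 0.28 (exact permutation p = 0.5, adjusted 0.6) and, without this library, -0.0039 (exact p = 1). The ratio of *Idh2* to *Idh1*, the mitochondrial to the cytosolic NADP-dependent enzyme, was 3.13, 1.89 and 2.89 in the controls and 3.20, 2.88 and 2.89 in the knockdown samples. Apart from Ctrl shRNA replicate 2 these ratios lay close together, with a log2 difference of 0.21 (exact permutation p = 0.6, adjusted 0.6) that became -0.01 without it (exact p = 1).

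**Figure D3:**
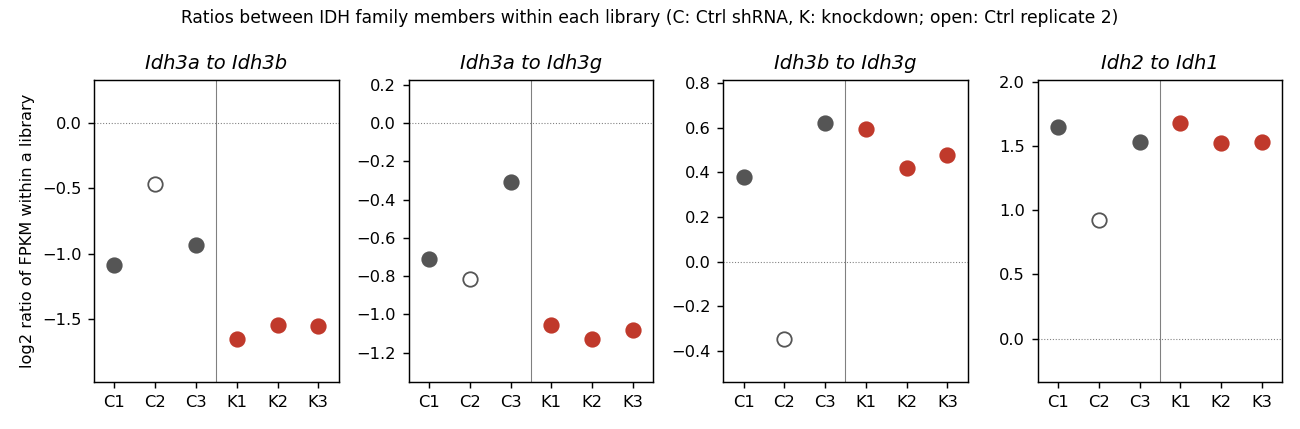
Log2 ratio of FPKM between pairs of IDH family genes within each library (vertical axes), for Ctrl shRNA replicates (C1 to C3, C2 open) and knockdown replicates (K1 to K3). *Idh3a* to *Idh3b* and *Idh3a* to *Idh3g* are lower in all knockdown libraries than in all controls, while *Idh3b* to *Idh3g* and *Idh2* to *Idh1* differ between groups mainly through C2.

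The levels of the members were compared per length. In FPKM, *Idh2* was the most abundant member in all 6 libraries, at 105.3, 99.5 and 111 in the controls and 110.2, 103 and 96.2 in the knockdown samples. *Idh3a* was the least abundant in all 6, at 15.8, 26.7 and 18.5 FPKM in the controls and 10.98 to 11.6 FPKM in the knockdown samples. Between these extremes *Idh1* averaged 41.5 ± 9.86 and 34.5 ± 1.23 FPKM in the controls and the knockdown samples, *Idh3b* 35.3 ± 1.62 and 34.0 ± 2.07 FPKM, and *Idh3g* 31.9 ± 13.1 and 24.1 ± 0.881 FPKM (SD, n = 3 each). Without Ctrl shRNA replicate 2 the control means were 36.0 ± 3.36 FPKM for *Idh1*, 34.5 ± 1.16 for *Idh3b* and 24.4 ± 2.10 for *Idh3g* (SD, n = 2). *Idh1* and *Idh3b* exchanged places from library to library and did not differ beyond their spread. *Idh3g* overlapped them in the controls through replicate 2 alone, and in the other 5 libraries it lay below both.

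Of the FPKM summed over the family, *Idh3a* took 7.39%, 10.2% and 8.17% in the controls and 5.34%, 5.48% and 5.60% in the knockdown samples. All knockdown shares lay below all control shares, with means of 8.58 ± 1.43% and 5.48 ± 0.130% (SD, n = 3 each), or 7.78% in the controls without replicate 2. *Idh2* took 45.4 ± 6.48% of the sum in the controls and 49.8 ± 0.964% in the knockdown samples, and its lowest share, 37.9%, was that of Ctrl shRNA replicate 2, without which the control share was 49.1%. The shares of *Idh3b* (15.1% and 16.4%), *Idh3g* (13.4% and 11.6%) and *Idh1* (17.6% and 16.7%) lay between these. Without that library the control shares were 15.6% for *Idh3b*, 11.1% for *Idh3g* and 16.3% for *Idh1*, so that for *Idh3g* and *Idh1* the knockdown mean was then the higher. The summed FPKM was 234 ± 25.2 in the controls and 207 ± 10.3 in the knockdown samples (SD, n = 3 each), and 220.3 in the controls without replicate 2.

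The per-length levels rested on the gene length used. The deposited length covers all annotated exons of a gene and was 2.11 times that of the principal transcript for *Idh3a*, 2.12 times for *Idh3b* and 2.03 times for *Idh3g*, but 1.20 times for *Idh1* and 1.48 times for *Idh2*. Per kilobase of the principal transcript, a scale chosen after seeing the data, *Idh3a* took 10.9% of the family in the controls and 7.05% in the knockdown samples, *Idh3b* 19.3% and 21.2%, *Idh3g* 16.3% and 14.4%, *Idh1* 12.8% and 12.3%, and *Idh2* 40.7% and 45.1%. Without Ctrl shRNA replicate 2 the control shares on this scale were 9.98% for *Idh3a*, 20.1% for *Idh3b*, 13.7% for *Idh3g*, 11.9% for *Idh1* and 44.3% for *Idh2*, which again turned the direction for *Idh3g* and *Idh1*. *Idh2* remained the most and *Idh3a* the least abundant member in all 6 libraries on this scale, but *Idh1* now lay below *Idh3b* and *Idh3g* in each of them. The order of the middle members is therefore not fixed by these data.

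Ctrl shRNA replicate 2 exceeded the mean of the other controls by 0.96 on the log2 scale for *Idh3g*, 0.66 for *Idh3a*, 0.57 for *Idh1* and 0.12 for *Idh3b*, and lay at -0.10 for *Idh2*. Over all tested genes the median of this difference was -0.05, with quartiles of -0.28 and 0.42. *Idh3g*, *Idh3a* and *Idh1* thus lay above the upper quartile of genes in this library, while *Idh3b* and *Idh2* lay between the quartiles. Over the 6 libraries, the members closest to each other in pattern were *Idh3b* and *Idh2*, with a root mean square difference of 0.0751 between their centred log2 CPM, and the farthest apart were *Idh3a* and *Idh2*, at 0.465. *Idh3a* was about as far from *Idh3g* (0.282) as from *Idh1* (0.284), and farther from *Idh3b* (0.419).

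Other genes were ranked by the same measure against each member, among 9590 tested genes with a mean of at least 10 CPM, as a description over 6 samples that share the scaling of Ctrl shRNA replicate 2. Closest to *Idh3a* were *Paxx* (0.0803), *Asns* (0.0809), which encodes asparagine synthetase, and *Rdm1* (0.0973), against a median of 0.503 over all genes. *Asns* gave 158, 254 and 164 CPM in controls 1 to 3 against 112, 120.5 and 113 CPM after knockdown. Closest to *Idh3g* were *Gm1821* (0.0419), *Mmgt2* (0.0420) and *Zfp617* (0.0572), and closest to *Idh1* were *Eif4a2* (0.0333), a translation initiation helicase, *Pdpn* (0.0337), a surface glycoprotein, and *Hmox2* (0.0346), a heme oxygenase. The values of these 6 genes and of *Paxx*, *Asns* and *Rdm1*, like those of *Idh3g*, *Idh1* and *Idh3a*, were highest in Ctrl shRNA replicate 2. Closest to *Idh3b* were *1810043G02Rik* (0.0277), *Stard3* (0.0294) and *Inka2* (0.0305), and closest to *Idh2* were *Mpnd* (0.0243), *Tubb6* (0.0292) and *Naglu* (0.0313). For these 2 flat members the spread of the member about its own mean was itself small, at 0.0725 for *Idh3b* and 0.0707 for *Idh2*, so that closeness says little.

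Genes around the family were then examined in 3 lists of 43 genes, of which 41 were tested. None of the 41 passed the edgeR threshold with all libraries, 13 had an unadjusted p below 0.05 (14.1% of all tested genes did), and DESeq2 called 3 (2.51% of the 14089 genes to which it gave an adjusted p). Without Ctrl shRNA replicate 2, 2 passed as lower and none as higher (1.79% of all genes passed in either direction and 0.675% as lower). *Slc25a1*, which the other shRNA targeted, is in the counts of 13, 3 and 2, so these counts describe the knockdown in part. The median log2 fold change over the 41 genes was 0.03 with all libraries, beside -0.01 over all tested genes, and 0.03 without Ctrl shRNA replicate 2.

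The 14 enzymes and carriers that make or use citrate, isocitrate and 2-oxoglutarate included the other targeted gene. *Slc25a1* averaged 103 ± 4.78 CPM in the controls and 67.2 ± 3.67 CPM in the knockdown samples (SD, n = 3 each), a log2 difference of -0.62 (edgeR adjusted p = 0.104), and it fell by 0.66 without Ctrl shRNA replicate 2 (adjusted p = 0.00649). None of the other 13 passed in either edgeR fit. Citrate synthase (*Cs*), which feeds the pathway, averaged 245 ± 19.6 and 301 ± 22.4 CPM (SD, n = 3 each; edgeR adjusted p = 0.339), with a control mean of 253 CPM without Ctrl shRNA replicate 2 (adjusted p = 0.182). The list's median log2 fold change was 0.19 with all libraries and 0.04 without Ctrl shRNA replicate 2.

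A list of 14 other genes of the TCA cycle and the steps that join it, among them pyruvate carboxylase, pyruvate dehydrogenase subunits and cytosolic malate dehydrogenase, held no called gene in either edgeR fit or in DESeq2, with a median log2 fold change of -0.23 that became -0.06 without Ctrl shRNA replicate 2. The malate dehydrogenase gene *Mdh1* averaged 335 ± 312 CPM in the controls and 146 ± 6.91 CPM in the knockdown samples, with a control mean of 155 CPM without that library. The succinate dehydrogenase subunit *Sdhb* averaged 171 ± 115 and 94.0 ± 5.19 CPM (SD, n = 3 each), with a control mean of 105 CPM without it. As for *Idh3g*, most of these differences lay in 1 control library.

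The last list, of 15 genes, held other enzymes that make NADPH, as Idh1 and Idh2 do, together with related genes such as the NAD kinases (*Nadk*, *Nadk2*) that supply NADP and the malic enzyme *Me2*, which mainly uses NAD. Of these, 13 were tested. The mitochondrial formyltetrahydrofolate dehydrogenase *Aldh1l2* averaged 44.2 ± 0.857 CPM in the controls and 29.3 ± 2.02 CPM in the knockdown samples (SD, n = 3 each). It fell by 0.62 on the log2 scale without Ctrl shRNA replicate 2 (edgeR adjusted p = 0.0143) and was called by DESeq2 with all libraries (adjusted p = 7.02e-05), while edgeR with all libraries gave -0.59 and an adjusted p of 0.112. *Pgd*, an NADPH-making enzyme of the pentose phosphate pathway, averaged 179 ± 14.9 and 238 ± 9.93 CPM (SD, n = 3 each) and was called higher by DESeq2 with all libraries (adjusted p = 0.0420), against edgeR adjusted p-values of 0.245 with all libraries and 0.0558 without Ctrl shRNA replicate 2. Over all settings the adjusted p ran from 4.16e-06 to 0.675 for *Aldh1l2* and from 0.000557 to 0.675 for *Pgd*. *Nnt*, the mitochondrial transhydrogenase that makes NADPH from NADH, had 0 counts in all 6 libraries, which allows up to 0.105 to 0.110 CPM of the total count in a library (3 counts, for counting error only). *Aldh1l1* held at most 13 counts in a library and was not tested.

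**Figure D4:**
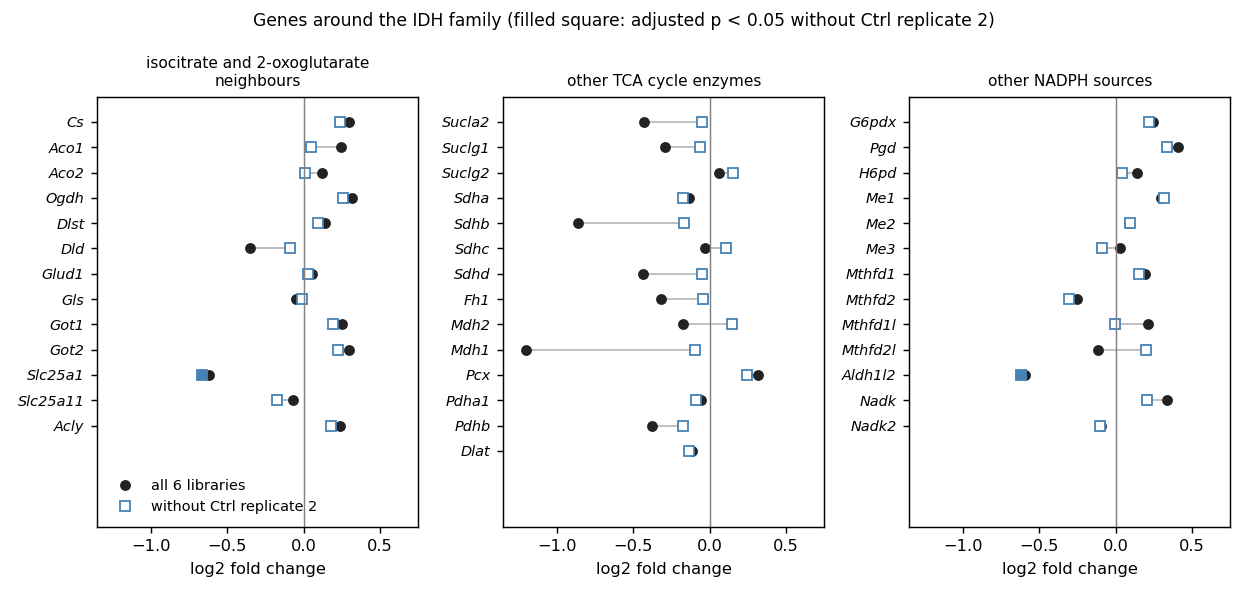
Log2 fold change, knockdown minus Ctrl (horizontal axes), of the tested genes of the 3 lists around the IDH family with all 6 libraries (circles) and without Ctrl shRNA replicate 2 (squares, filled where the adjusted p was below 0.05); *Ogdhl*, below 1 CPM on average, is not drawn. *Slc25a1* and *Aldh1l2* are the filled squares, and for *Mdh1* and *Sdhb* the estimate moves toward 0 without that library.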

How the data were processed

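RNA-seq of MLE12 cells was analysed in 3 Ctrl shRNA and 3 Idh3α shRNA + Slc25a1 shRNA samples, grouped by the sample labels. The authors deposited whole-number read counts per Ensembl gene without normalization, and FPKM values that equal these counts per unit of gene length and of the authors' own library size (0.716 to 1.08 times the total count). The submitters' processing notes name HISAT2 2.0.5, StringTie 1.3.3b, featureCounts 1.5.0-p3 and mm10 without giving their roles, and the labels name NEBNext Ultra libraries, paired-end HiSeq reads and a Trinity assembly; the use of strand is not given in the sources used here. Of the 54532 genes, 98.3% had the start and end of GENCODE M21 (GRCm38), from which the *Idh3a* target site and transcripts were read. No unused columns of per-sample values were left (0).

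Counts were filtered with filterByExpr, scaled with TMM and tested with the quasi-likelihood test of edgeR 4.0.16 in R 4.3.3 over all genes, two-sided, with no covariate and a Benjamini-Hochberg adjusted p threshold of 0.05. Fold intervals are 95% intervals of that fit. Alternatives used DESeq2 1.42.0 and limma 3.58.1 (voom with sample quality weights, or log2(FPKM + 1) and log2(FPKM + 0.1) of genes with an FPKM of at least 1 in 3 samples), other scalings and filters, the replicate number as a block and each library left out in turn. Within-library FPKM ratios were compared with exact permutation tests over samples in Python 3.11.15 with SciPy 1.17.1, and figures were drawn with matplotlib 3.10.9. Similarity of pattern was the root mean square difference of log2(CPM + 0.5), centred per gene, over the 6 samples. The fits were tested on simulated data.

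Named genes were the members, *Slc25a1*, genes of the 3 surrounding lists past the threshold with or without Ctrl shRNA replicate 2, the 3 genes closest in pattern to each member, and genes overlapping a member. *Pgd*, *Cs*, *Mdh1*, *Sdhb*, the marker genes and untested list genes fall outside this rule and were named after their values were seen. The tested list genes *Nadk*, *Nadk2*, *Me2* and *Ogdhl*, named to describe a list or a figure, also fall outside it. No annotated transcript of another gene shared a run of 50 bases with a member. Members and lists were chosen with earlier results of these data known. The labels do not say whether replicates came from separate cultures, so p-values measure only the spread between these samples, and they give no batch. Replicate pairs differed by more than sampling noise (chi-square per degree of freedom 6.13 to 503). Whether replicate numbers pair the samples could not be decided from these data. Some items are not reported here.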

Additional observations from a re-analysis of the deposited data

How the results depend on the processing

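With all libraries none of the 5 members passed the adjusted p threshold (0), and with edgeR it stayed 0 under the other scalings, count filters and the replicate block. *Idh3a* alone (1 member) passed with DESeq2 (log2 fold change -0.84), without Ctrl shRNA replicate 2 (-0.60), with DESeq2 without that library (-0.59) and with limma's sample quality weights (-0.67), and was negative in every setting. Over all genes, DESeq2 without that library called 490 as higher and 330 as lower, of 12459. The quality weights called 1327 as higher and 971 as lower, of 15307. Leaving out each library in turn gave -0.997 to -0.60 for *Idh3a*, -0.10 to -0.02 for *Idh3b*, -0.62 to -0.02 for *Idh3g*, -0.40 to -0.06 for *Idh1* and -0.077 to 0.021 for *Idh2*, and 0 to 1 member called. Without Ctrl shRNA replicate 2 the edgeR biological coefficient of variation fell from 0.263 to 0.102. The estimates of *Idh3b* (-0.06) and *Idh2* (-0.03) became 0.13 and 0.14 with scaling by total count only, and that of *Idh3g* moved from -0.41 to 0.016 with quality weights; the cause was not tested. Of the genes around the family, 0 passed with all libraries, 2 without Ctrl shRNA replicate 2 and 3 with DESeq2. The targeted *Slc25a1* was among the genes that passed in both of the latter settings. Leaving out each library gave log2 ratio differences of -0.88 to -0.57 for *Idh3a* to *Idh3b*, -0.58 to -0.33 for *Idh3a* to *Idh3g*, -0.0039 to 0.48 for *Idh3b* to *Idh3g* and -0.011 to 0.35 for *Idh2* to *Idh1*. Both changes of sign came without Ctrl shRNA replicate 2.

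Deviations of replicates of the same number from their group means gave r across genes of -0.15, -0.09 and 0.04. Replicates of unlike number gave -0.04 to 0.15. The control deviations were taken from a mean that includes Ctrl shRNA replicate 2, so these values cannot decide whether the numbers pair the samples. With the replicate block *Idh3a* was -0.81 (edgeR adjusted p = 0.576), no gene of the table was called and no member or surrounding gene passed. Over all genes 10 were called by edgeR with all libraries and 281 without Ctrl shRNA replicate 2, 353 by DESeq2, and with limma quality weights 1327 as higher and 971 as lower. Shares by counts rather than FPKM put *Idh3a* at 14.6% of the family in the controls and 9.56% after knockdown.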
